A study of Mus musculus with 4 samples.

Results

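The skeletal muscle contractile genes are 43 genes of the striated muscle fibre, chosen by name for their known place in the fibre, and all 43 were among the 22911 genes named on the arrays. They divide by fibre type into 14 genes of fast fibres, 8 of slow fibres, 2 developmental myosins, 16 genes of all fibres and 3 transcription factors. RNA came from mouse tissue labelled PDL, the periodontal ligament that holds the tooth root in its socket. Mice of the Mkx-KO groups are labelled as knocked out for the gene that encodes Mohawk, a homeodomain transcription factor of tendons and ligaments, and those of the WT groups as wild type. Both genotypes were sampled at an age of 4 weeks and again at 10, which made 4 groups with 1 array each. Strain, the deleted part of Mkx, how the ligament was taken and the number of mice behind each RNA are not given in the sources used here.

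Skeletal muscle shortens when myosin heads of the thick filament pull on actin of the thin filament. Calcium released from the sarcoplasmic reticulum starts this by binding troponin, which moves tropomyosin off the myosin sites. Most parts of the machine exist as separate fast and slow genes, so a fibre that contracts quickly and one that contracts slowly carry different myosins, troponins and calcium stores. Embryonic and perinatal myosins come before the adult ones. Periodontal ligament itself is a fibroblast tissue and its own cells do not build sarcomeres; the muscles of chewing, the tongue, the cheeks and the lips lie close to it.

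Each value below is the log2 processed signal of a gene's brightest probe minus the 75th percentile of that array, called its level. Levels are compared between arrays for one probe and never between genes. A difference is Mkx-KO minus WT, or 10 minus 4 weeks. Its technical error comes from the scanner software's error for both spots, with a median of 0.20 over all genes. That error holds no variation between mice, so the values describe these 4 arrays, and no pair of arrays has a test. A probe was measured when the scanner software called it well above background, and a gene was called when it was measured on both arrays and at least 2-fold apart.

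Ligament and fibroblast markers, which define the labelled tissue, were present: 10 of 10 were measured on all 4 arrays, with a summed level between 2619 and 2818 where 1 is the 75th percentile of the array. Mkx itself was lower on both Mkx-KO arrays, by a difference of -2.10 at 10 weeks and -1.65 at 4 weeks, and was still well above background on both. The Mkx-KO array at 4 weeks stood apart in olfactory and nasal gland markers. The summed level of 8 olfactory and nasal gland markers at 10 weeks was 1189 (WT) and 1541 (Mkx-KO), while at 4 weeks it was 612 (WT) and 1.69 (Mkx-KO). The part of this in the muscle values was not tested.

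Of the 43 genes, 38 were measured on all 4 arrays and 40 on at least 2. Myod1 and Myog, the transcription factors that commit myoblasts and start their differentiation, were not well above background on any array. Myh3, the embryonic myosin heavy chain, was measured only in WT at 10 weeks, at a level of -3.82. Nebulin (Neb) and Myf6, the transcription factor that persists in mature fibres, were measured on every array except Mkx-KO at 4 weeks. Of the remaining 38 genes, 33 had their lowest level in Mkx-KO at 4 weeks. The same count over all genes is not given here. The highest level fell in Mkx-KO at 10 weeks for 27, in WT at 4 weeks for 5, and for 3 genes each in 10-week WT and 4-week Mkx-KO.

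**Figure D1:**
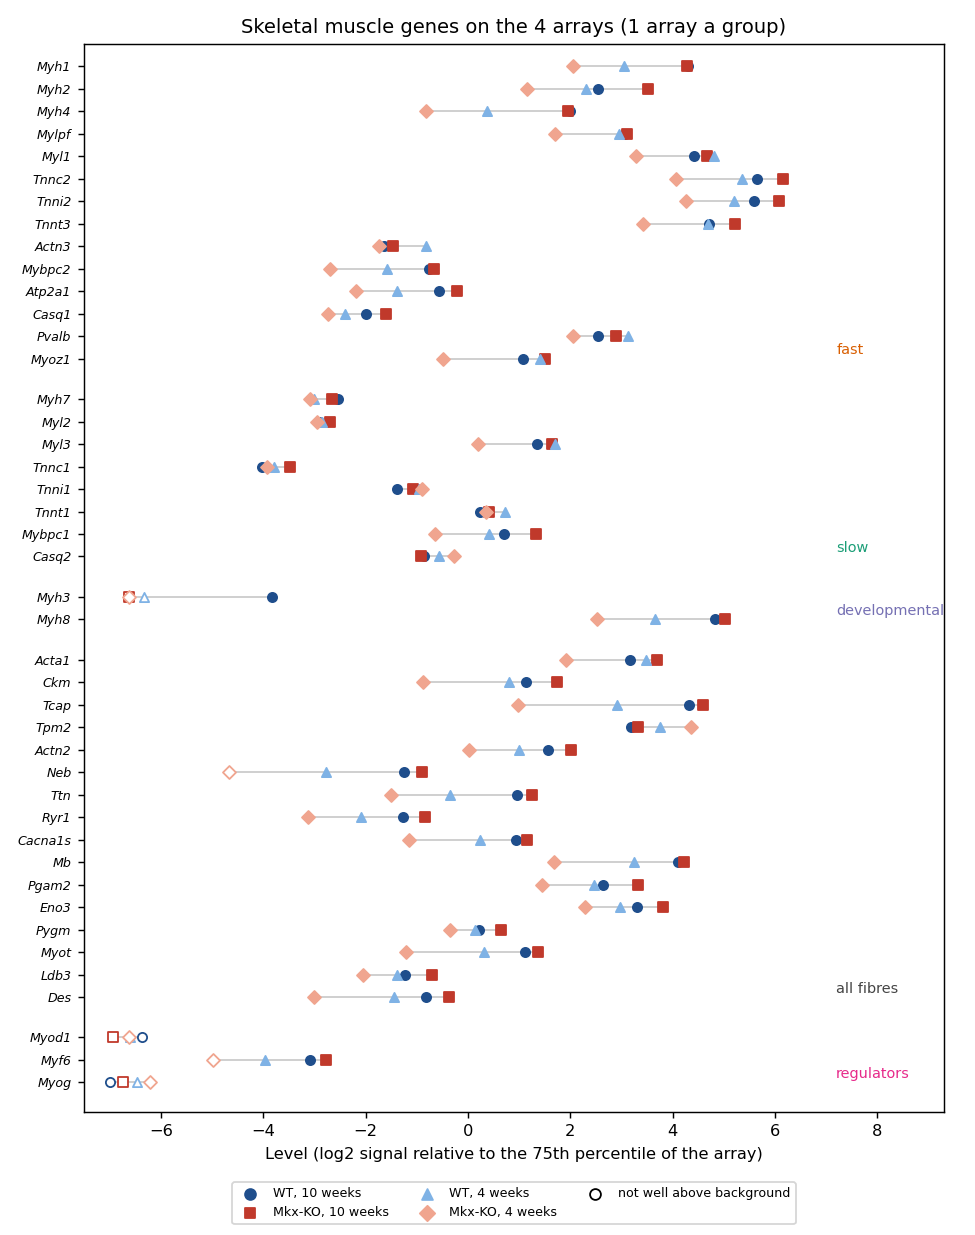
Level of each of the 43 muscle genes (log2 signal minus the array's 75th percentile) on the 4 arrays, grouped by fibre type; each point is 1 array, a grey line spans a gene's range and open symbols are not well above background. Among the 38 genes measured on all arrays, the Mkx-KO array at 4 weeks is the lowest for 33, with no such count given for all genes.

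The first comparison asked which transcripts of young ligament tissue differ without Mkx. At 4 weeks, 23 of the 38 muscle genes measured on both arrays were at least 2-fold lower in Mkx-KO, where 3.31% of 15686 genes were, and none was at least 2-fold higher, where 0.472% of genes were. The median difference over the 40 genes measured on at least 2 arrays was -1.06, against 0.04 over all 16795 such genes. Fast fibre genes and genes of all fibres carried the difference, with 10 of 14 and 10 of 15 measured genes called and medians over those genes of -1.13 and -1.15. Among slow fibre genes 2 of 8 were called and the median was -0.11, which turned to 0.04 under quantile normalization. After normexp background correction, which pulls dim spots together, 14 of the 38 were called and the median was -0.87. In whole tissue, fewer muscle fibres and less of these RNAs in each fibre cannot be told apart.

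Thick filament genes were lower in Mkx-KO at 4 weeks as a group, with 9 of 11 measured genes called. Myh4, the heavy chain of fast type IIB fibres, read 1.99 (WT) and 1.96 (Mkx-KO) at 10 weeks, then 0.38 (WT) and -0.82 (Mkx-KO) at 4 weeks. Myh1, the heavy chain of type IIX fibres, read 4.31 and 4.27 at 10 weeks, then 3.06 (WT) and 2.06 (Mkx-KO) at 4 weeks. Both heavy chains differed by -0.03 at 10 weeks, and at 4 weeks Myh4 differed by -1.20 and Myh1 by -1.01. Myh2, the heavy chain of type IIA fibres, read 2.53 (WT) and 3.53 (Mkx-KO) at 10 weeks, 2.30 in WT at 4 weeks and 1.16 in Mkx-KO at 4 weeks. On this probe the Mkx-KO levels lay above both WT levels at 10 weeks and below them at 4 weeks, with an age difference of 0.23 in WT. A dimmer Myh2 probe gave -1.06 for age in WT, and was not well above background in Mkx-KO at 4 weeks. Myh8, the perinatal heavy chain, read 4.82 and 5.02 at 10 weeks, 3.66 in WT at 4 weeks and 2.52 in Mkx-KO at 4 weeks, a 4-week difference of -1.14. The second probe of Myh8 was not well above background on any array. Myh3, Myh2, Myh1, Myh4 and Myh8 follow one another on chromosome 11 as near copies, and how far a probe reads its neighbours was not tested.

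Myosin light chains stiffen the lever arm of the myosin head. Myl1, the fast essential light chain, read 4.41 (WT) and 4.67 (Mkx-KO) at 10 weeks, 4.81 in WT at 4 weeks and 3.29 in Mkx-KO at 4 weeks. Myl3, the slow essential light chain that heart ventricle also uses, read 1.36 and 1.65 at 10 weeks, 1.70 in WT at 4 weeks and 0.20 in Mkx-KO at 4 weeks. Their 4-week differences of -1.52 and -1.50, each with a technical error of 0.20, were alike although one gene is fast and the other slow.

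Of 8 thin filament genes measured at 4 weeks, 3 were called lower, Acta1 and the fast troponins Tnnc2 and Tnnt3. Acta1, the alpha actin of skeletal muscle, read 3.18 (WT) and 3.70 (Mkx-KO) at 10 weeks, 3.49 in WT at 4 weeks and 1.93 in Mkx-KO at 4 weeks. Mkx-KO at 4 weeks had the lowest Acta1 level, 2.96-fold below its WT. Neb, the ruler of thin filament length, read -1.24 and -0.89 at 10 weeks and -2.77 in WT at 4 weeks. It was not well above background in Mkx-KO at 4 weeks, where its reading was 3.75-fold lower. Beta tropomyosin (Tpm2), which covers the myosin sites on actin, went the other way. Its brighter probe read 3.19 (WT) and 3.33 (Mkx-KO) at 10 weeks, 3.75 in WT at 4 weeks and 4.37 in Mkx-KO at 4 weeks. A dimmer probe for another transcript of Tpm2 gave a 4-week difference of -0.65 in place of 0.62. Tpm2 transcripts are also made by smooth muscle and fibroblasts. The 8 measured smooth muscle and pericyte markers were split on the same array, with 4 differences positive, 4 negative and a median of 0.06. At least 2-fold higher were 2, Acta2 by 1.63 and Tagln by 1.22, while Myh11 differed by -0.36. The part of these markers in the Tpm2 value was not tested.

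At the Z disc, which anchors the thin filaments, 5 of 8 genes were called lower and all 8 differences were negative. Tcap, the telethonin that caps titin in the Z disc, read 4.32 (WT) and 4.60 (Mkx-KO) at 10 weeks, 2.92 in WT at 4 weeks and 0.97 in Mkx-KO at 4 weeks. Its difference of -1.95 was the farthest from 0 of the 38 genes. Myoz1, a Z disc protein of fast fibres that binds calcineurin, read 1.07 and 1.502 at 10 weeks, 1.42 in WT at 4 weeks and -0.48 in Mkx-KO at 4 weeks. Myoz1, like Acta1, was lowest in Mkx-KO at 4 weeks. Titin (Ttn), the spring that centres the thick filament, read 0.97 and 1.25 at 10 weeks, -0.35 in WT at 4 weeks and -1.50 in Mkx-KO at 4 weeks, so that its 4-week levels were below its 10-week levels in both genotypes. Actn2 and Actn3, the alpha-actinins that cross-link actin there, differed by -0.96 and -0.93, and the intermediate filament gene Des by -1.57, or -0.77 after normexp.

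Among genes of calcium handling 3 of 6 were called. Pvalb, the calcium buffer parvalbumin of fast fibres, read 2.55 (WT) and 2.89 (Mkx-KO) at 10 weeks, 3.14 in WT at 4 weeks and 2.06 in Mkx-KO at 4 weeks. Cacna1s, the voltage sensor of the transverse tubule, read 0.94 and 1.15 at 10 weeks, 0.25 in WT at 4 weeks and -1.16 in Mkx-KO at 4 weeks. Ryr1, the release channel that the sensor opens, differed by -1.04 at 4 weeks, but by -0.43 after normexp. Both parts of the release unit were thus lower. The calcium pump Atp2a1 differed by -0.79 and the store protein Casq1 by -0.34, while Casq2, the store protein of slow and heart muscle, differed by 0.30.

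Genes of energy supply were lower in 5 of 5 cases, and 3 were called. Myoglobin (Mb), the oxygen store of the fibre, read 4.11 (WT) and 4.23 (Mkx-KO) at 10 weeks, 3.25 in WT at 4 weeks and 1.69 in Mkx-KO at 4 weeks. Muscle creatine kinase (Ckm), which refills ATP from phosphocreatine, read 1.13 and 1.74 at 10 weeks, 0.81 in WT at 4 weeks and -0.88 in Mkx-KO at 4 weeks, and differed by -1.69. The glycolytic gene Pgam2 differed by -1.02 and Eno3 by -0.67, and glycogen phosphorylase (Pygm) by -0.47. All 5 genes had their lowest level in Mkx-KO at 4 weeks. Myf6 read -3.09 (WT) and -2.77 (Mkx-KO) at 10 weeks, -3.97 in WT at 4 weeks, and was not well above background in Mkx-KO at 4 weeks, at least 1.63-fold lower.

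**Figure D2:**
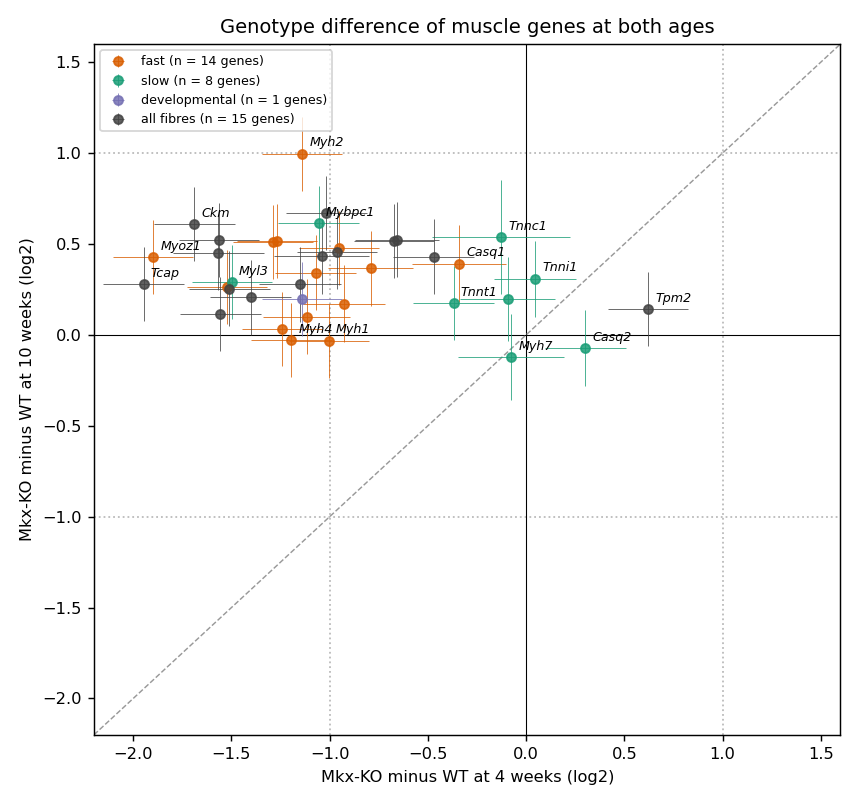
Difference of Mkx-KO and WT (log2) at 4 weeks on the horizontal axis and at 10 weeks on the vertical axis for the 38 genes measured on all arrays, coloured by fibre type; bars are the technical error, dotted lines mark 2-fold and the dashed line equal values. Fast genes and genes of all fibres lie left of 0 at 4 weeks, except Tpm2 at 0.62. Of the 8 slow genes, 6 lie between -0.37 and 0.30, a range that also holds fast Casq1 at -0.34.

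Slow fibre genes were set against the fast gene of the same subunit in 7 pairs, since fast and slow copies share a function within the filament. At 4 weeks the fast gene had the lower difference in 7 of 7 pairs, by -1.16 to -0.06 with a median of -0.997. The promoters of 2 such pairs are printed here, troponin C (fast Tnnc2, slow Tnnc1) and the heavy chain (fast Myh4, slow Myh7), because the copies sit apart in these data. Each window runs from 250 bases before to 50 after a transcript start in RefSeq on GRCm38.p6. Capitals mark the E-box letters CANNTG that the Myod1 family binds, the MEF2 and CArG motifs of muscle genes (both strands), and TATAAA on the gene's strand; MEF2 and TATAAA letters can overlap, and in these windows no capitals are shared. Tnnc2 lies on the minus strand at chr2:164779685-164779984, Tnnc1 on the plus strand at chr14:31208062-31208361, Myh4 on the plus strand at chr11:67237562-67237861 and Myh7, the more upstream of its windows, on the minus strand at chr14:54994577-54994876.
Tnnc2: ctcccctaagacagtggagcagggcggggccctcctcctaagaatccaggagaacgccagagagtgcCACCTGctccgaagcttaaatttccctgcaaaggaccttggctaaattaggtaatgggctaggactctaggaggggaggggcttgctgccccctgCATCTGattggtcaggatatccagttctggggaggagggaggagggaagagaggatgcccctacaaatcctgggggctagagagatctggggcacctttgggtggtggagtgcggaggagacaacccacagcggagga
Tnnc1: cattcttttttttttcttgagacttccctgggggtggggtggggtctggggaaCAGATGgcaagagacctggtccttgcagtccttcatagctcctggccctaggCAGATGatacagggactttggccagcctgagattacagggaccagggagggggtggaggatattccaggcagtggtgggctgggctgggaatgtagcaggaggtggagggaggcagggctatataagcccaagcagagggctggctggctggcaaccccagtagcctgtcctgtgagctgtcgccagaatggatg
Myh4: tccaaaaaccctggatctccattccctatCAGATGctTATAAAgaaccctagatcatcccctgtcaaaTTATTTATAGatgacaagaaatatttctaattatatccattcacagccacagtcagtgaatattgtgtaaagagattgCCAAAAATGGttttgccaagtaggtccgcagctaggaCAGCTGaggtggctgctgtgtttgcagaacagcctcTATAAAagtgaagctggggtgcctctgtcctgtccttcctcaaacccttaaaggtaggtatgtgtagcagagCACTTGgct
Myh7: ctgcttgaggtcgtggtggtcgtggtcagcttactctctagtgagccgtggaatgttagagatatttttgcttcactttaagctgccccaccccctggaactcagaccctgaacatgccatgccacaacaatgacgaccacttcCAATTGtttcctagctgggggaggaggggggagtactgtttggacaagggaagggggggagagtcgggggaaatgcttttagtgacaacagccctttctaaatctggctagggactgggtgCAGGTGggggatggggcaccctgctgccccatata

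The Myh4 window held 3 E-boxes, 1 MEF2 motif, 1 CArG motif and TATAAA in 2 places. Tnnc2, Tnnc1 and Myh7 held 2 E-boxes each and none of the other 3 motifs, so these letters did not separate the fast from the slow copy of troponin C. Of the 43 genes, 34 had a window, 41 windows in all. E-box letters occurred in 35 of the 41 (85.4%) and in 72.3% of all 32851 promoter windows. MEF2 letters occurred in 7 (17.1%) and in 3.19% of all, CArG letters in 5 (12.2%) and in 1.63%, and TATAAA in 6 (14.6%) and in 8.32%. MEF2 letters stood in 3 of 11 fast windows and 1 of 11 slow windows, and E-box letters in 8 of 11 fast windows and 11 of 11 slow windows. Letters in a window are a description, and binding was not measured.

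Troponin C is the calcium sensor of the thin filament. Fast Tnnc2 read 5.66 (WT) and 6.17 (Mkx-KO) at 10 weeks, 5.36 in WT at 4 weeks and 4.07 in Mkx-KO at 4 weeks. Slow Tnnc1 read -4.02 and -3.48 at 10 weeks, -3.80 in WT at 4 weeks and -3.92 in Mkx-KO at 4 weeks. The 4-week difference was -1.29 for the fast gene with a technical error of 0.20, and -0.13 for the slow gene with an error of 0.35. Troponin I holds the filament off in the absence of calcium. Fast Tnni2 read 5.60 and 6.08 at 10 weeks, 5.21 in WT at 4 weeks and 4.26 in Mkx-KO at 4 weeks, and slow Tnni1 read -1.38, -1.07, -0.95 and -0.90 in the same order. Troponin T ties the complex to tropomyosin. Fast Tnnt3 read 4.70 and 5.22 at 10 weeks, 4.69 in WT at 4 weeks and 3.42 in Mkx-KO at 4 weeks, and slow Tnnt1 read 0.24, 0.41, 0.72 and 0.35. In each troponin the fast gene was lowest in Mkx-KO at 4 weeks, whereas the slow gene was not set apart on that array. Slow Tnnc1 was dim, at -3.92 on that array where the dimmest level well above background was -4.68. A second Tnni1 probe was not well above background on any array. How far a dim slow probe reads its gene was not tested.

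The slow heavy chain Myh7 read -2.54 (WT) and -2.66 (Mkx-KO) at 10 weeks, with -3.00 (WT) and -3.08 (Mkx-KO) at 4 weeks. Its 4-week difference of -0.08 compares with -1.20 for Myh4. The regulatory light chains, which tune the myosin head, read 3.08, 3.11, 2.94 and 1.70 for fast Mylpf and -2.90, -2.70, -2.86 and -2.95 for slow Myl2, in the order WT and Mkx-KO at 10 weeks, then WT and Mkx-KO at 4 weeks. The fast chain alone was low on the last array, although a dimmer Mylpf probe for another transcript gave 0.11 in place of -1.24. The calsequestrins read -2.00, -1.61, -2.40 and -2.74 for fast Casq1 and -0.85, -0.93, -0.56 and -0.26 for slow Casq2 in that order. Fast minus slow was -0.64 at 4 weeks, with an error of 0.31. A second Casq2 probe was not well above background on any array. Slow Myh7 and Myl2 were dim, with signals of 33.3 and 36.7 in WT at 4 weeks. Those of Myh4 and Mylpf were 346 and 2053.

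Myosin-binding protein C, which brakes the myosin heads, was the exception among the 7 pairs. Fast Mybpc2 read -0.77 and -0.67 at 10 weeks, -1.58 in WT at 4 weeks and -2.70 in Mkx-KO at 4 weeks. Slow Mybpc1 read 0.71 and 1.32 at 10 weeks, 0.41 in WT at 4 weeks and -0.65 in Mkx-KO at 4 weeks. Their 4-week differences were -1.12 and -1.06, and fast minus slow was -0.06 with an error of 0.30. Mybpc1 and Myl3 were therefore the 2 slow genes called at 4 weeks, and Mybpc1 is also made by some fast fibres. The summed level of the 8 slow genes was 6.68, 8.37, 7.76 and 4.75 on the 4 arrays, in the same order, and that of the 14 fast genes 194, 258, 167 and 72.3. Without Mybpc1 and Myl3 the slow genes summed to 2.48, 2.74, 3.18 and 2.96. Of 9 heart muscle markers, which share several slow genes, the summed level lay between 0.64 and 0.85, and Nkx2-5 was not well above background on any array.

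**Figure D3:**
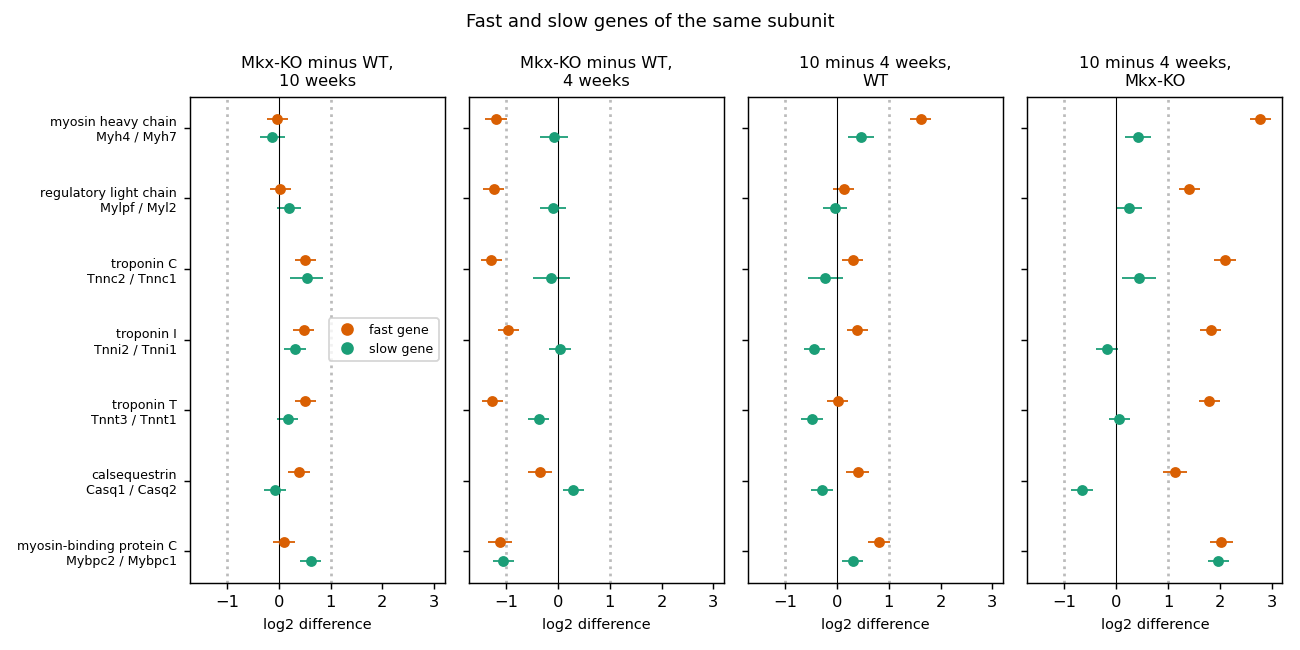
Log2 difference of the fast and the slow gene of 7 subunits in the 4 comparisons; bars are the technical error and dotted lines mark 2-fold. At 4 weeks the fast gene is lower than its slow partner in 7 of 7 pairs, with myosin-binding protein C nearly equal at -0.06, while at 10 weeks it is lower in 3 and higher in 4.

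The same comparison in adult tissue gave small differences of the opposite sign. At 10 weeks none of 40 measured muscle genes lay 2-fold or more below WT, where 1.37% of 16457 genes did, and none 2-fold or more above it, where 1.04% did. The median was 0.33 against 0.01 over all genes. Positive differences were found for 36 of 40 muscle genes and for 8469 of 16457 genes. For 15 muscle genes the difference exceeded 2 technical errors, and the share of all genes is not given here. Medians were 0.35 for fast genes, 0.43 for genes of all fibres and 0.24 for slow genes. Myh2 came nearest to the threshold with 0.996, and its dimmer probe gave 1.67. Pgam2 followed with 0.67, Ckm and Mybpc1 with 0.61 each, while other probes of Mybpc1 gave 0.21 and -0.16. The other fast heavy chains, Myh1 and Myh4, gave -0.03 each, and a dimmer Myh4 probe gave 0.34. Myh3 was measured in WT only, at least 1.83-fold lower in Mkx-KO.

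Signs at both ages were opposite for 33 of the 38 genes measured on all arrays, 32 of them higher at 10 weeks and lower at 4 weeks; over 15504 genes the share with opposite signs was 51.9%. For 15 of these muscle genes both differences exceeded 2 technical errors, and the share of all genes is not given here. Neutrophil precursor markers had the same pair of signs. Their median was 0.82 at 10 weeks and -1.29 at 4 weeks, their summed level was 132, 224, 102 and 38.6 on the 4 arrays, and their part in the muscle values was not tested.

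The age comparison asked how the tissue differs between 4 and 10 weeks in each genotype. In WT, 6 of 40 muscle genes were at least 2-fold higher at 10 weeks, against 5.01% of 16102 genes, and none was at least 2-fold lower, against 3.83%. The 6 were Myh4 at 1.62, Neb at 1.53, Tcap at 1.40, Ttn at 1.32, Myh1 at 1.24 and Myh8 at 1.16. A dimmer Myh4 probe gave 0.39, and Neb was at 0.83 after normexp, below the 2-fold threshold. These are 3 heavy chains, the giant proteins titin and nebulin, and the titin cap, while Actn3 was lower by a difference of -0.82 and Pvalb by -0.59. Tnnt3 at 0.01 and Myl2 at -0.04 were level between the ages. The median was 0.31 against -0.09 over all genes.

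In Mkx-KO, 28 of 38 muscle genes were at least 2-fold higher at 10 weeks, against 6.25% of 15669 genes. One, Tpm2 at -1.04, was at least 2-fold lower, against 3.84%, and its other probe gave 1.46. The median was 1.92 against -0.13 over all genes. Tcap differed by 3.63, Myh4 by 2.78 and Ttn by 2.75. Neb, which was not well above background at 4 weeks, read 13.8-fold higher at 10 weeks. Of the 8 slow genes, Mybpc1 at 1.97 and Myl3 at 1.45 were called. The others lay between -0.66 for Casq2 and 0.44 for Tnnc1, with 0.06 for Tnnt1, -0.17 for Tnni1, 0.25 for Myl2 and 0.42 for Myh7. The fast gene had the higher difference in 7 of 7 pairs in each genotype, with a median of 0.53 in WT and 1.73 in Mkx-KO. Below their technical errors of 0.31 and 0.30 were Mylpf minus Myl2 in WT, at 0.17, and Mybpc2 minus Mybpc1 in Mkx-KO, at 0.05. Other probes changed the order. In WT they gave 0.39 for Myh4 against 0.465 for Myh7, and 1.34 for Mybpc1 against 0.81 for Mybpc2. The dimmer Mylpf probe gave -0.06 in WT and 0.07 in Mkx-KO, against -0.04 and 0.25 for Myl2. The age difference was larger in Mkx-KO for 35 of 38 muscle genes, and for 44.1% of the 15504 genes measured on all arrays. This comparison shares the Mkx-KO array at 4 weeks with the genotype comparison above, so it is not independent of it.

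**Figure D4:**
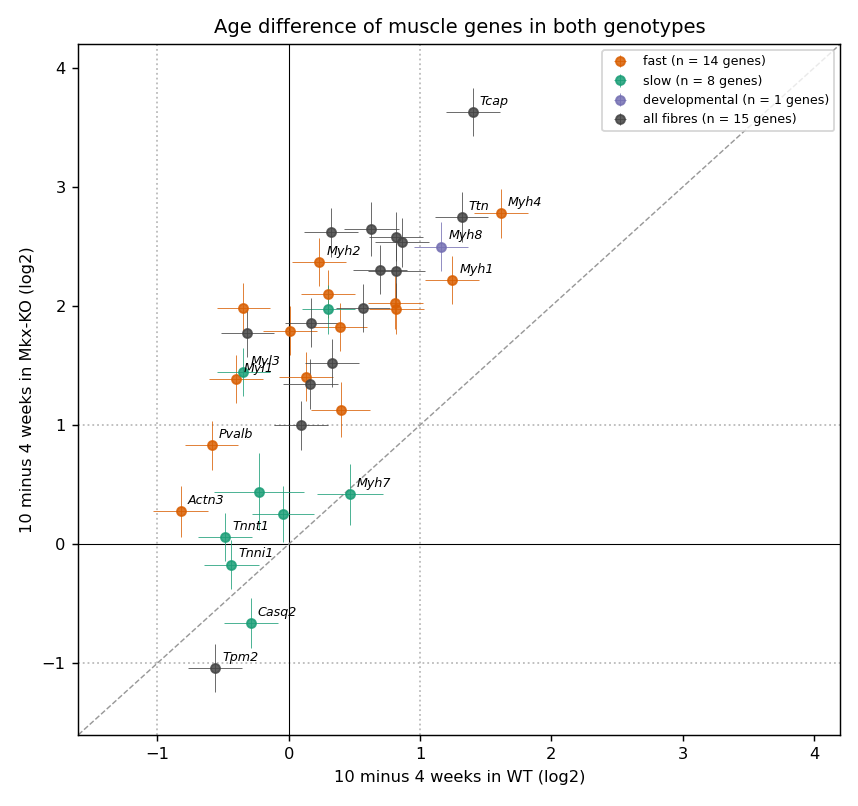
Difference of 10 and 4 weeks (log2) in WT on the horizontal axis and in Mkx-KO on the vertical axis for the 38 genes measured on all arrays, coloured by fibre type; bars are the technical error, dotted lines mark 2-fold and the dashed line equal values. For 35 genes the point lies above the line of equal values, from 3.63 for Tcap in Mkx-KO down to slow genes near 0.

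An additive fit of genotype and age in limma over the 4 arrays, with 1 residual degree of freedom, called none of 16795 genes for genotype (0.0%) and none for age (0.0%) at a Benjamini-Hochberg adjusted p of 0.05. For genotype, 455 genes and 0 of 40 muscle genes had an unadjusted p below 0.05. For age, 4074 of 16795 genes and 12 of 40 muscle genes had such a p in this fit, shares near one another. Of the 12 muscle genes, 11 were higher at 10 weeks, and the direction over all genes is not given here. The lowest adjusted p of a muscle gene for age was 0.176. After normexp the age term called 31 genes, none of them a muscle gene. A fit without an interaction averages the genotype difference over both ages. Its 1 residual degree of freedom is the 10-week minus 4-week genotype difference itself, so opposite signs at the ages also widen its error. The 0 of 40 for genotype therefore does not speak to either age alone.

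Other genes of the fibre, in lists apart from the 43, give the wider setting at 4 weeks. Of other sarcomere genes, 4 of 12 measured on both arrays were called lower and none higher; the calcineurin-binding Z disc gene Myoz2 and the stretch-linked Smpx differed by -1.17 each, and the actin nucleator Lmod3 by -1.08. Of fibre energy genes, 5 of 12 were called lower, led by Ppargc1a, a coactivator of mitochondrial genes, at -1.97, mitochondrial creatine kinase Ckmt2 at -1.41 and the muscle form of a cytochrome oxidase subunit, Cox6a2, at -1.40. The remaining 8 sarcomere and 7 energy genes measured on both arrays were not called. Of excitation and calcium genes, 3 of 9 were called lower, Trdn (triadin, which ties Ryr1 to calsequestrin) at -1.71, Cacnb1 (a subunit of the Cacna1s channel) at -1.64 and Srl (sarcalumenin, a calcium-binding protein of the reticulum) at -1.09.

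Genes of nerve contact and of new fibres were compared at 4 weeks too, where 3.31% of 15686 genes were called lower and 0.472% higher. Of 6 neuromuscular junction genes, Chrna1 and Chrne, subunits of the acetylcholine receptor, were measured and differed by -0.00 and 0.19. Of 10 embryonic and regenerating fibre genes, 6 were measured at both genotypes; Actc1, the actin of heart and fetal muscle, was called higher at 1.44, the fusion gene Mymk differed by 0.37 and the satellite cell cadherin Cdh15 by -0.94. Chrng, Mymx and Myf5 were not well above background on any array. Head and limb muscle regulators included 0 called of 7, with Smyd1, a methyltransferase of the sarcomere, at 0.42 and Mef2d at 0.41.

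Markers of other cell types were read on the same arrays, in the order WT and Mkx-KO at 10 weeks, then WT and Mkx-KO at 4 weeks. At 4 weeks, 5 of 6 measured olfactory and nasal markers, 6 of 7 neutrophil precursor markers, 1 of 4 salivary gland markers and 1 of 4 adipocyte markers were called lower in Mkx-KO, with medians over the measured markers of -6.92, -1.29, -0.67 and -0.70. Over all 15686 genes the share called lower was 3.31%. Also called lower were 2 of 8 osteoblast and cementoblast markers and 1 of 7 Schwann and neuron markers. These counts leave out 2 salivary markers and 2 olfactory and nasal markers that were measured in WT but not in Mkx-KO at 4 weeks. The 2 salivary ones were Dcpp2 and Bpifa2. Salivary markers summed to 9.31, 9.89, 4.66 and 1.55, and adipocyte markers to 3.31, 4.55, 2.55 and 1.72. Olfactory, nasal and neutrophil precursor markers were thus mostly lower on the same array as the muscle genes. All 4 measured salivary markers had a negative difference there, whereas 7 of 8 epithelial markers had a positive one. Ligament markers differed little, with 0 of 10 called and a median of 0.01. Smooth muscle and pericyte markers summed to 52.4, 50.3, 59.2 and 104 with a median of 0.06, and Myocd and Lmod1 were not well above background on any array. Osteoblast and cementoblast markers summed to 180, 280, 461 and 330 with a 4-week median of -0.28, and epithelial markers to 833, 450, 324 and 579 with 0.74. Schwann and neuron markers summed to 41.3, 44.2, 41.5 and 41.4 with -0.14. The part of any of these in the muscle values was not tested. The shift of the spots around each muscle spot lay between -0.07 and 0.09 for the 4-week comparison.

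**Figure D5:**
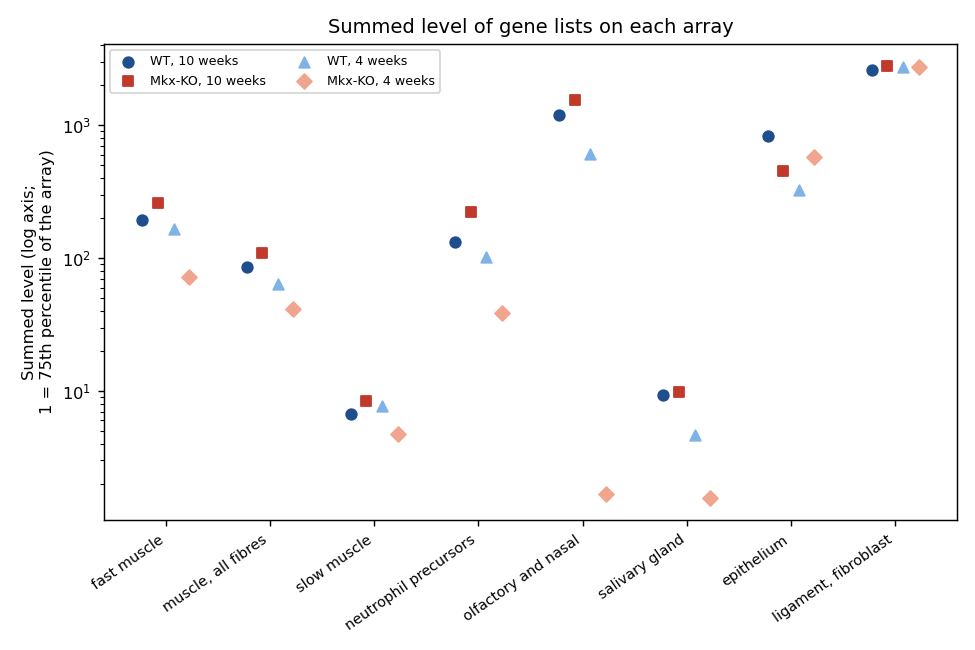
Summed level (log axis; 1 is the 75th percentile of the array) of muscle gene lists and of markers of other cell types on each of the 4 arrays, to be compared between arrays within a list only. On the Mkx-KO array at 4 weeks the fast muscle genes are at 72.3 against 167 in WT, olfactory and nasal markers at 1.69 against 612, and the 8 slow muscle genes at 4.75 against 7.76. Without Myl3 and Mybpc1, a sum not plotted, the slow genes are at 2.96 against 3.18.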

How the data were processed

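ISOGEN was used for RNA extraction, and the Cy3-labelled cRNA was made from 0.1 ug, per the labels. Per the file headers and the submitters' processing notes, the deposited scan data hold spot intensity on a linear scale from Agilent Feature Extraction 11.5.1.1, which subtracted background. All 4 arrays lay on 1 slide. The deposited series table is the same intensity times 1 factor per array (1.54 to 2.08), set by a rule not given in the sources used here. From the processed signal, outlier spots (60 to 77 per array) were dropped, spots of a probe averaged, and log2 levels centred on the 75th percentile of each array. No spot was saturated, and 61.8% to 66.6% of spots were well above background. RefSeq accessions named 32994 of 56605 probes; 17 of the 43 genes had several probes, and the brightest stood for the gene.

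The muscle genes, their classes, the other lists and the comparisons were chosen with earlier results of these data known. Values are printed for the brightest 2 genes of each role and fibre class, the 3 farthest from and nearest to 0 in each comparison, all fast and slow partners, the developmental and regulator genes, and the top 3 of each other fibre list, of which 1 is not reported here; further genes were named after their values were seen. Where only 1 array of a pair measured a gene, the other was set at the dimmest level its scanner flags accept, which gives a bound. For Neb the array's own reading lay above that level and was used, so its folds are ratios of readings. Alternatives were normexp (offset 50, on median intensities, since the planned mean was not used here), quantile normalization, median centring, the series table, the mean over probes, background filters, folds of 1.5 and 3, a requirement of 2 technical errors, and other limma fits. limma 3.58.1 in R 4.3.3 was tested on simulated data. Python 3.11.15 with pandas 2.3.3, numpy 2.4.6 and, for plots, matplotlib 3.10.9 did the rest.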

Additional observations from a re-analysis of the deposited data

Results flagged for a closer look

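Several muscle genes were higher in Mkx-KO at 10 weeks and lower at 4 weeks, each by more than 2 technical errors. The difference between the ages was not tested, since each group has 1 array. Taken as the 10-week difference minus the 4-week difference, the median over the muscle genes was 1.42. Among Z disc and filament genes it was 2.33 for Myoz1, 2.09 for Acta1, 2.02 for Des, 1.42 for Actn2, 1.18 for Ldb3, a Z disc adaptor, 2.14 for Myh2 and 1.67 for Mybpc1. For the fast troponins it was 1.80 for Tnnc2, 1.78 for Tnnt3 and 1.43 for Tnni2. Of the energy and calcium genes, Ckm gave 2.30, Pgam2 1.69, Ryr1 1.47, Eno3 1.19 and Pygm 0.90. After normexp background correction Ryr1 gave 0.76 and Des 1.11.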

How the results depend on the processing

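No paired analysis was possible because each group has 1 array. Of the counts and medians, 88 counts and 54 medians kept their value within 1.5 times or within the technical error over the alternatives, and 14 and 2 did not. Those kept include 10 counts and 8 medians from the series table. They could not move, since centring removes the 1 factor per array. The 8 counts that also required 2 technical errors could not move either. The largest error of a measured muscle gene was 0.35, so 2 such errors lie below the 2-fold threshold. Median centring shifts all genes of an array alike, so its fast minus slow medians were fixed too. Normexp gave 14 genes lower at 4 weeks in Mkx-KO and an age median of 1.46 in Mkx-KO. Quantile normalization gave 1 gene higher at 10 weeks, 0 lower with age in Mkx-KO, and 1.85 for the fast minus the slow median with age in Mkx-KO. The mean over probes gave 1 higher at 10 weeks and 0 lower with age in Mkx-KO, and turned Tpm2 with age in Mkx-KO to 0.21 and the 10-week minus 4-week genotype difference of Myh8 to -0.27. Without a background filter 1 gene was lower at 10 weeks. At 1.5-fold, 4 genes were higher at 10 weeks, 1 was higher at 4 weeks, 2 were lower and 14 higher with age in WT, and 2 lower with age in Mkx-KO. At 3-fold, 3 were lower at 4 weeks, 1 was higher with age in WT and 0 lower with age in Mkx-KO. Other thresholds admit more or fewer genes by construction; for the other changes the cause was not tested. No scaling moved the median of all genes by over 0.1. The number of arrays limits every value, and some dim probes have wide errors, such as 0.35 for Tnnc1 at 4 weeks.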
